A study of Mus musculus with 14 samples.

Results

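Back skin of wild-type C57BL/6 mice taken 12 h after ultraviolet (UV) irradiation was compared with unirradiated back skin, across all 10980 genes of the deposited expression table. These are 4 of the 14 RNA sequencing libraries of a time course over the first day after a mixed UV source, namely 2 from skin labelled as untreated and 2 from skin labelled as irradiated and collected at 12 h. The fur of the back was depilated and the full thickness of the skin was sampled. The labels do not say separately whether the untreated skin was depilated, nor do they give the UV dose, the time of day or whether each library came from its own animal.

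The columns of the table fall into library sets, which differ in number format and overall profile. Each 12 h library was therefore set against the unirradiated library of its own set (set 1 and set 2). Levels are in FPKM, fragments scaled to the length of the transcript and to the mapped fragments of the library. In the text below, paired values give set 1 first and set 2 second. A gene "rose" or "fell" where the moderated test of limma, with the set as a term and Benjamini-Hochberg adjustment over all 10980 genes, gave an adjusted p under 0.05. Fold changes are differences in log2(FPKM + 1), with the standard error (SE) of that fit and n = 2 libraries a group.

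UV light damages DNA, proteins and RNA of the epidermis, the layered sheet of keratinocytes that covers the skin. Keratinocytes divide in the basal layer, move outwards and build a cross-linked protein shell, the cornified envelope, from loricrin, filaggrin-like proteins, late cornified envelope (LCE) proteins and small proline-rich (SPRR) proteins. Injured epidermis is known to switch to another programme, in which the wound keratins, SPRR and LCE3 proteins and antimicrobial proteins are made. Most of the envelope genes lie side by side in the epidermal differentiation complex on mouse chromosome 3.

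At 12 h after UV, 418 of the 10980 genes had changed (3.81%). Of these, 63 rose (0.574%) and 355 fell (3.23%), so 84.9% of the calls were falls. Counts within gene lists, given below, are to be read beside these shares, at which a short list can hold 0 calls. Changes of at least 1 on the log2 scale were seen for 19 genes that rose and 184 that fell. All 418 moved in the same direction in both library sets. The change tested is the mean of both sets' changes and their disagreement adds to the spread, so this agreement is largely built into the test. The skin markers Krt5, Krt14, Krt10, Col1a1 and Col3a1 were abundant in all 4 libraries, at no less than 132.2 FPKM (Col3a1 at 12 h in set 1). Over all genes, 67.4% had the same sign in both sets, and the 2 changes correlated across genes with Pearson's r of 0.615 and Spearman's rho of 0.516. Genes are not independent replicates, so this is a description. The median change of all genes was -0.03. The term for the set decides these calls. Without it limma called 0 genes, and 494 had an unadjusted p under 0.05. Dropping an unirradiated library gave 164 calls (set 1) or 92 (set 2), dropping a 12 h library 51 (set 1) or 87 (set 2), and dropping the 6 h library of set 3 gave 814. In all, 37 genes were called in each of the 14 fits that left out 1 library, 4 that rose and 33 that fell.

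**Figure D1:**
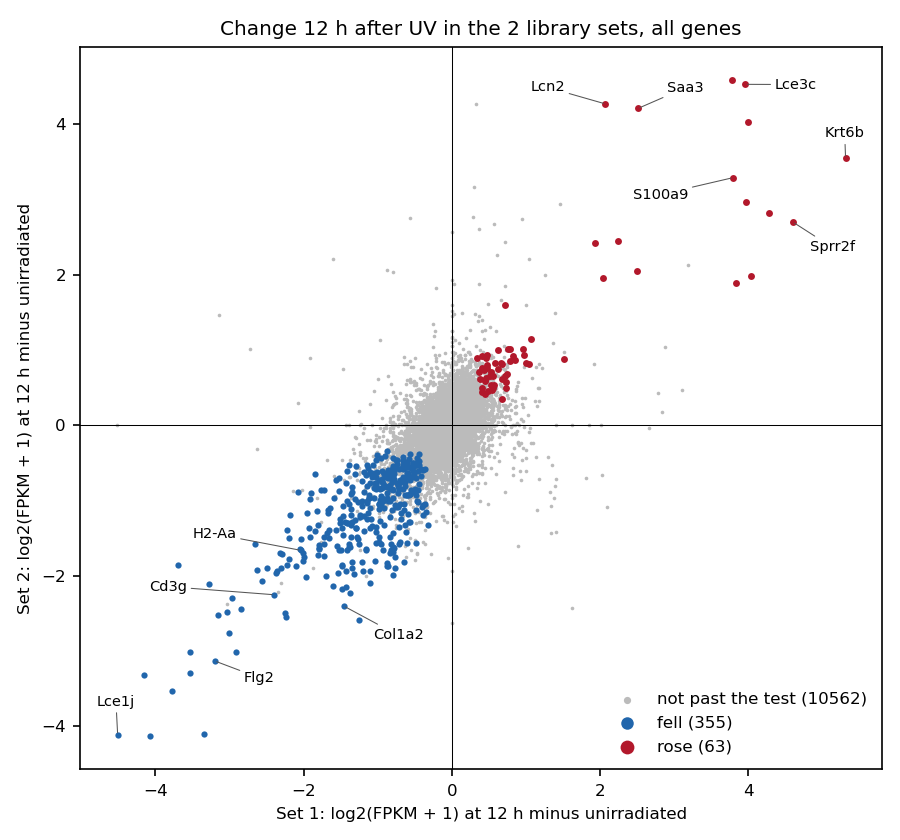
Change of every gene between unirradiated skin and 12 h after UV, as the difference in log2(FPKM + 1), in library set 1 (x axis) and library set 2 (y axis). Each point is a gene, red where it rose (63), blue where it fell (355) and grey where it did not pass the test (10562). Coloured points lie in the upper right and lower left parts of the plot only, which the test largely builds in.

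The epidermal differentiation complex held, in the fit used here, the 10 largest falls and 7 of the 10 largest rises, and its gene blocks moved in opposite directions. All 14 measured Lce1 genes fell, with changes from -4.31 to -2.37, and all 3 measured Lce3 genes rose, with changes from 2.86 to 4.24. Of 7 measured Sprr2 genes, 5 rose. Fits without 1 of the 4 compared libraries called 3 to 10 of the 14 Lce1 genes, 1 or 2 of the 3 Lce3 genes and 2 to 5 of the Sprr2 genes, in each family fewest without the 12 h library of set 1 (for Lce3 also without the unirradiated one of set 2). These genes have near-identical copies, so the level of any single member is uncertain. In bulk skin, fewer cells of a type and less RNA per cell cannot be told apart, here and in all results that follow.

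Along chromosome 3 (GRCm38, GENCODE vM21), 41 measured genes lie between S100a8, which starts at 90668978, and Rptn, which ends at 93399442. S100a8 and S100a9 lead this stretch and rose. The Sprr block follows, where Sprr2d, Sprr2e, Sprr2f, Sprr2g, Sprr2i and Sprr1b rose, while Sprr2h (1.96 ± 0.63), Sprr2a3 (-0.36 ± 0.74), Sprr1a (0.52 ± 0.23) and Sprr4 (-0.01 ± 0.19) did not pass. Ivl (involucrin, an early scaffold of the envelope) did not pass either, with a change of 0.32 ± 0.34. Then come Lce6a and the run from Lce1a1 to Lce1l, all of which fell together with Kprp, a keratinocyte proline-rich protein gene. Directly beyond Lce1l, which ends at 92851286, lie Lce3b, Lce3c and Lce3d, starting at 92932979, which rose. Lce1m and Flg2, further along, fell.

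**Figure D2:**
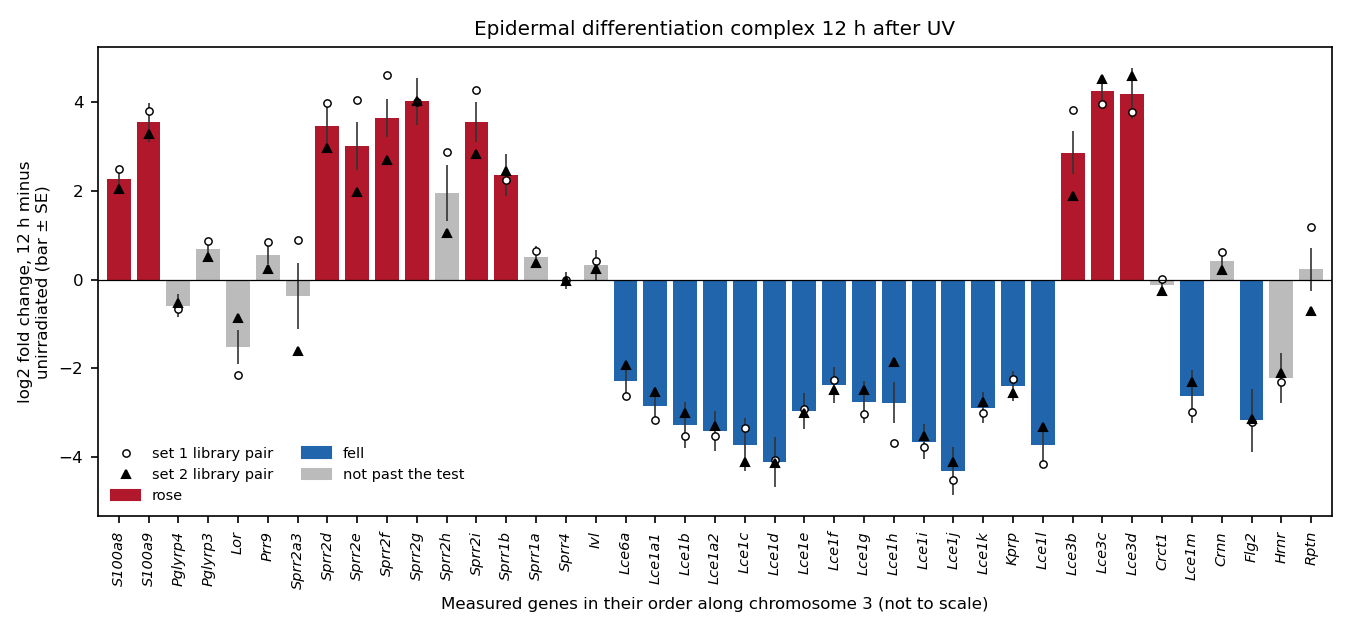
Change at 12 h after UV for the 41 measured genes of the epidermal differentiation complex, in their order along chromosome 3, as log2 fold change (bars, ± SE), with the set 1 pair (circles) and the set 2 pair (triangles). Red bars rose, blue bars fell and grey bars did not pass the test. The Sprr2 bars (except Sprr2a3, -0.36) and the Lce3 bars point upwards and the Lce1 bars point downwards.

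Lce1j, whose product is a late envelope protein, went from 48.4 and 16.2 FPKM in unirradiated skin to 1.17 and 0 FPKM at 12 h, a change of -4.31 ± 0.54 (limma adjusted p = 0.00326). In set 2, where whole reads could be recovered, these levels were 154 reads and 0 reads. Both 12 h libraries lay below both unirradiated ones. Such separation says little by itself, here and for the genes below. With 2 libraries a group an exact permutation test cannot go below 0.333, and the share of all genes so separated is not given here. Lce1l, with 72.0 and 23.6 FPKM before and 3.09 and 1.48 FPKM after, fell by 3.73 ± 0.40 and was called in all 14 fits that left out 1 library. Flg2 (filaggrin-2, which helps the horny layer hold water) went from 160.3 and 116.9 to 16.5 and 12.5 FPKM, or from 12188 to 1254 reads in set 2, a change of -3.17 ± 0.71. Its call ended without any 1 of the 4 libraries (changes of -3.28 to -3.05) and with a pseudocount of 0.1 in place of 1.

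Lce3c showed the reverse. Its level was 5.35 and 0.913 FPKM in unirradiated skin and 97.9 and 43.1 FPKM at 12 h, a change of 4.24 ± 0.28 (limma adjusted p = 0.000187). The 2 groups did not overlap. Lce3d went from 6.65 and 1.05 FPKM to 104.0 and 48.6 FPKM. Sprr2f was close to undetected in unirradiated skin, at 0.298 and 0 FPKM, and had 30.5 and 5.50 FPKM at 12 h, a change of 3.65 ± 0.43. In set 2 that was 0 reads against 22. Sprr2g went from 1.19 and 0.113 FPKM to 34.1 and 17.2 FPKM, a change of 4.02 ± 0.53.

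The letters just upstream of the start sites were compared between the blocks. Among 11 short patterns searched in the 250 bases before the start of each gene (RefSeq, GRCm38.p6, found for 8435 measured genes), TGANTCA, the palindromic recognition sequence of the AP-1 factors Fos and Jun, stood in 5 of the 5 Sprr genes that rose and had an entry (Sprr1b, Sprr2d, Sprr2e, Sprr2f and Sprr2i). It stood in 0 of 3 Lce3 genes, 0 of 13 Lce1 genes and 5.84% of all promoters. TATAAA, searched on both strands like the rest, was in the same 5 Sprr promoters, in 2 Lce1 promoters and in 8.58% of all. The looser TGANNCA, which includes every TGANTCA, was in 12 of 13 Lce1, 3 of 3 Lce3 and 5 of 5 Sprr promoters and 32.6% of all, so it did not separate the blocks. TGANTCA was also in 2 of 4 promoters of the class II genes described below and in that of Hspa5. The patterns were chosen after the calls were known. The Sprr2 promoters are related copies and are not independent of each other. The Sprr genes that did not pass were not tallied, so whether TGANTCA goes with a rise within the family was not tested. A match describes the letters and shows no binding. A Sprr2 promoter, that of its neighbour Sprr1b and that of Lce1j are shown to compare the blocks, 5′ to 3′ up to the start site, with TGANTCA in capitals where it occurs.
Sprr2f promoter, chr3:92364937-92365186, plus strand: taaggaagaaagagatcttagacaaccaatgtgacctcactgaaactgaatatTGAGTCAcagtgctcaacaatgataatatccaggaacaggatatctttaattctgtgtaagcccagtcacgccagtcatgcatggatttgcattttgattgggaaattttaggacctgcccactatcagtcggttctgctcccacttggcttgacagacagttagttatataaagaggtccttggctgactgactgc
Sprr1b promoter, chr3:92438780-92439029, minus strand: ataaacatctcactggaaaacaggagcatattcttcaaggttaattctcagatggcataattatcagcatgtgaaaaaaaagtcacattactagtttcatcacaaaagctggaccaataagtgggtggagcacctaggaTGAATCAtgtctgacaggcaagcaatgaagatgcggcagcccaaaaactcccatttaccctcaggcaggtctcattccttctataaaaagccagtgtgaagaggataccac
Lce1j promoter, chr3:92790515-92790764, minus strand: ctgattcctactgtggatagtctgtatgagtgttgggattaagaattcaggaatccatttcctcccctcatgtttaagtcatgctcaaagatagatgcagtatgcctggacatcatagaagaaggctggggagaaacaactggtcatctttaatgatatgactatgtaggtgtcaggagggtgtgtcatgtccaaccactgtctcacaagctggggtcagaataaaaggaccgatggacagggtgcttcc
In Sprr2f the first base of the match lies 197 bases before the start, and in Sprr1b 111 bases before it. The open middle base is G in Sprr2f and A in Sprr1b. The Lce1j window holds no match.

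Of 33 measured genes of the late cornified envelope and granular layer, 20 fell, 0 rose and 13 did not pass, but 14 of these 20 were the Lce1 genes. Among the other 19 members 6 fell, Lce6a, Kprp, Flg2, Casp14, Krt10 and Krt77, with a median of -0.5 over the 19. Each fit without 1 of the 4 compared libraries called 1 of the 19. Casp14 (caspase-14, which processes filaggrin) went from 263.3 and 229.1 FPKM to 43.7 and 53.6 FPKM, a change of -2.32 ± 0.42. Krt10, the keratin of the suprabasal layers, had 2589 and 1208 FPKM in unirradiated skin and 683.0 and 610.3 FPKM at 12 h, a change of -1.45 ± 0.33. Krt77 fell by 2.11 ± 0.39. Lor (loricrin, the main envelope protein) and Hrnr (hornerin) had changes of -1.51 ± 0.38 and -2.21 ± 0.56 and missed the threshold, both with a limma adjusted p of 0.0565.

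Some wound and antimicrobial genes rose. Krt6b, a keratin of injured and hair follicle epithelium, went from 1.04 and 0.0658 FPKM to 79.9 and 11.5 FPKM, a change of 4.43 ± 0.62 (limma adjusted p = 0.00491). Its neighbour Krt6a started far higher, at 170.2 and 136.3 FPKM, and reached 488.1 and 252.3 FPKM, a change of 1.20 ± 0.20. Krt6a and Krt6b are near-identical, so reads may be shared between them. Krt16, their usual partner, had 27.1 and 22.8 FPKM before and 254.6 and 102.9 FPKM after, a change of 2.66 ± 0.65 that missed the threshold (limma adjusted p = 0.0511). Klk6, a secreted kallikrein protease, rose by 0.90 ± 0.19. In the list of 18 measured wound and hyperproliferation genes, 3 rose and 0 fell, with a median of 0.51. Fits without 1 of the 4 libraries called 0 to 2 of them, the 0 without the 12 h library of set 1.

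Among 15 measured antimicrobial and acute phase genes, 5 rose and 2 fell. Fits without 1 of the 4 libraries called 2 to 5 rises, and 0 falls, and the 2 rises stood when the unirradiated library of set 2 was dropped and when the 12 h one of set 1 was. S100a9 and S100a8, the subunits of calprotectin, a metal-binding protein of neutrophils and stressed keratinocytes, went from 7.17 and 2.95 to 112.3 and 37.5 FPKM and from 27.4 and 5.82 to 160.0 and 27.2 FPKM. The changes were 3.54 ± 0.44 and 2.27 ± 0.23. For S100a9 the groups did not overlap, whereas for S100a8 the 12 h library of set 2 lay just below the unirradiated library of set 1. Lcn2 (lipocalin-2, which binds bacterial siderophores) had 4.19 and 1.47 FPKM before and 20.8 and 46.7 FPKM after, a change of 3.17 ± 0.59. Saa3, an acute phase protein, changed by 3.36 ± 0.52 and Slpi, a secreted protease inhibitor, by 2.00 ± 0.29. Defb6, a beta-defensin, fell from 1251 and 260.9 FPKM to 519.3 and 90.8 FPKM, a change of -1.39 ± 0.31. Its level fell within each set, but the unirradiated library of set 2 lay below the 12 h library of set 1. Lyz2, the lysozyme of myeloid cells, fell by 1.38 ± 0.29. Of 17 neutrophil markers, 1 was among the genes analysed, Il1r2, a decoy receptor for interleukin-1 that other cells also make, and it fell by 1.27 ± 0.23. The part of neutrophils in the rise of S100a8 and S100a9 was not tested.

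**Figure D3:**
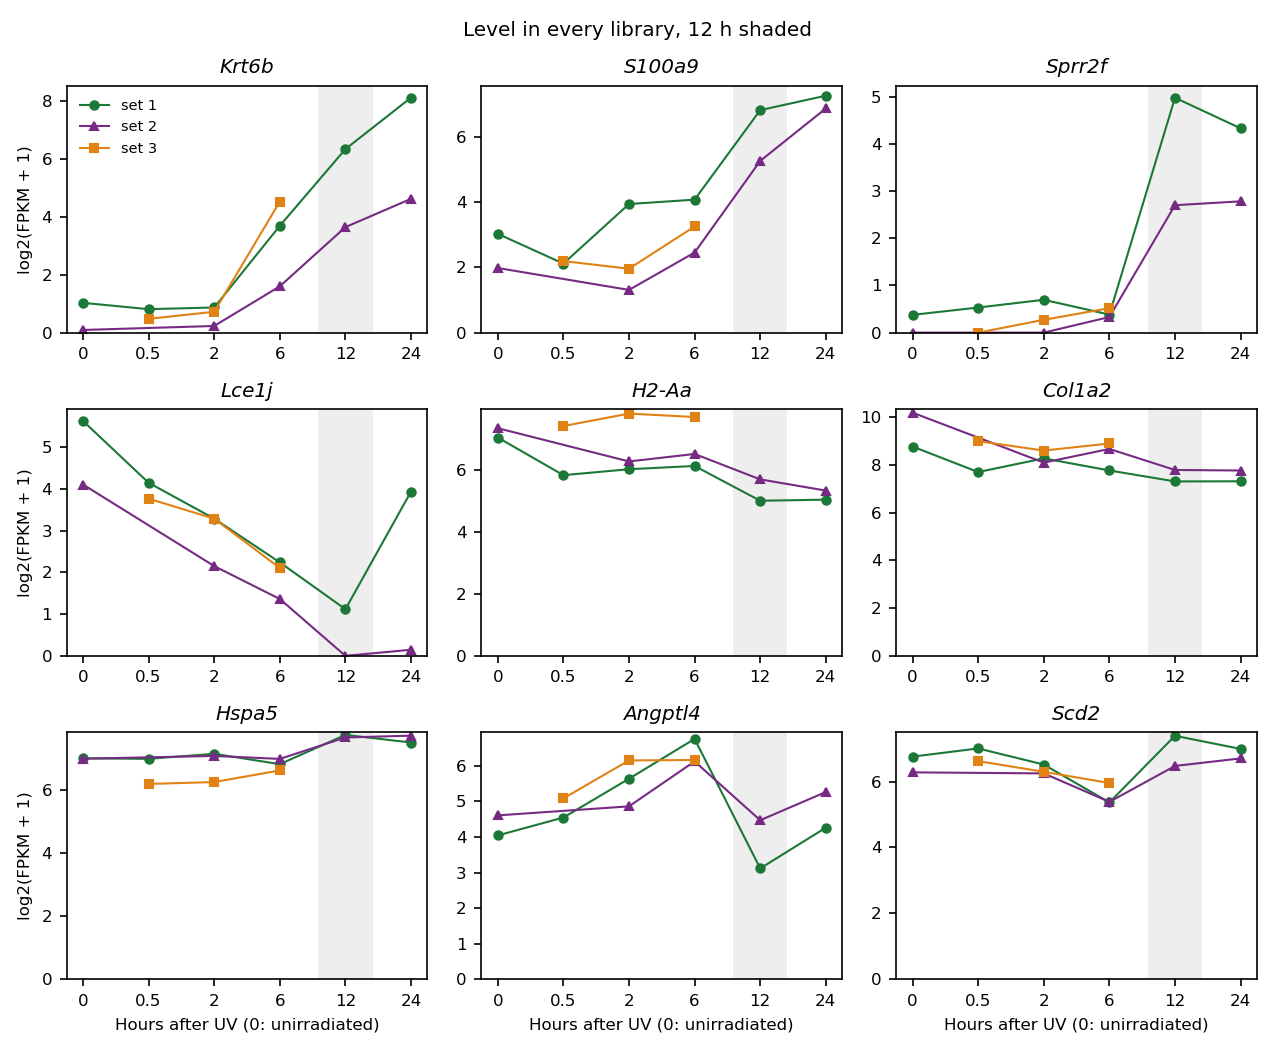
Level of 9 genes in all 14 libraries as log2(FPKM + 1), against hours after UV (0 is unirradiated; the hours are evenly spaced, not to scale), with 1 line per library set and 12 h shaded. Krt6b, S100a9 and Sprr2f are higher at 12 h than at 0 h in both sets, Lce1j, H2-Aa and Col1a2 are lower, and Angptl4 and Scd2 differ mainly from 6 h.

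Receptor ligands of the EGF family, which drive keratinocyte growth and repair, moved apart. Epgn (epigen) went from 7.38 and 6.35 FPKM to 30.9 and 38.4 FPKM, a change of 2.18 ± 0.49. Btc (betacellulin) went from 8.08 and 7.86 FPKM to 0.816 and 1.72 FPKM, a change of -2.01 ± 0.28. Neither gene's groups overlapped. Fits without 1 of the 4 libraries ended the call of Epgn, and those without either library of set 1 that of Btc. The other 9 measured members of the EGFR family list did not pass. Areg (amphiregulin) had a change of 0.36 ± 0.23 and Egfr itself -0.19 ± 0.17.

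Some genes that tie basal keratinocytes to the basement membrane fell. Of 16 measured genes of basal anchoring, 5 fell and 0 rose, with a median of -0.36. Fits without 1 of the 4 libraries called 1 to 4 of them, the 1 without the unirradiated or the 12 h library of set 1. Col17a1, the transmembrane collagen of hemidesmosomes, had 164.4 and 126.9 FPKM in unirradiated skin and 66.0 and 48.8 FPKM at 12 h, a change of -1.33 ± 0.17 that was called in all 14 such fits. Dst (dystonin, the plakin that links hemidesmosomes to keratins), Col7a1 (the anchoring fibril collagen) and Lamb3 (a laminin-332 chain) changed by -1.14 ± 0.20, -0.95 ± 0.14 and -0.91 ± 0.15. The basal keratins Krt5 and Krt14 had changes of -0.39 ± 0.16 and -0.28 ± 0.18 and did not pass. Of 14 desmosome genes 0 passed, beside 3.81% of all genes. Dsp (desmoplakin) and Perp had changes of -0.20 ± 0.17 and -0.04 ± 0.16. In the follicle stem and progenitor list, 2 of 11 fell, Sostdc1 (-0.93 ± 0.18) and Krt15 (-0.73 ± 0.17), and leaving out any 1 of the 4 libraries ended both calls. Among all fits that left out 1 library, the call of Krt15 stood only without the 6 h library of set 3. It also ended under quantile normalization, median-of-ratios scaling, a cut at a mean of 5 FPKM and the muscle covariate. A fit of only the groups compared ended it too.

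Genes of class II antigen presentation fell. All 6 measured genes fell, with a median of -1.77 and medians within the sets of -1.91 and -1.76, and all 6 were called in each of the 14 fits that left out 1 library. H2-Eb1 went from 46.7 and 81.6 FPKM to 10.1 and 21.5 FPKM, a change of -1.99 ± 0.15 (limma adjusted p = 0.000187). H2-Aa, a chain of the class II molecule that shows peptides to helper T cells, went from 132.7 and 163.9 FPKM to 31.4 and 51.3 FPKM. Cd74, its invariant chain, went from 267.1 and 221.5 FPKM to 76.0 and 72.9 FPKM. The groups did not overlap for any of these 3 genes, which were chosen among the called ones. H2-DMa and H2-DMb1, which load the peptides, fell as well, with changes of -1.59 ± 0.18 and -1.51 ± 0.16. Of 13 measured class I genes 3 fell, the inducible proteasome subunit Psmb9 (-1.30 ± 0.23), the transactivator Nlrc5 (-1.19 ± 0.22) and the peptide transporter Tap1 (-0.54 ± 0.11), and leaving out any 1 of the 4 libraries ended these calls.

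Some leukocyte markers fell as well. Of 4 measured T and NK cell markers 3 fell. Cd3g, a subunit of the T cell receptor complex, went from 7.79 and 7.99 FPKM to 0.664 and 0.893 FPKM, a change of -2.32 ± 0.38, and Nkg7, a granule protein of cytotoxic cells, from 5.21 and 2.99 FPKM to 0.906 and 0 FPKM. Thy1, also made by fibroblasts, had -0.71 ± 0.22 and did not pass. Cd52, a small surface protein of lymphocytes and other leukocytes, was the third to fall. Without 1 of the 4 libraries, 1 or 2 of the 3 were called, and likewise 1 or 2 of the macrophage markers that follow. Of 14 macrophage markers 3 fell, Mgl2 (a macrophage and dendritic cell lectin, -1.79 ± 0.28), Csf1r (the CSF-1 receptor, -1.65 ± 0.21) and F13a1 (coagulation factor XIII, -1.29 ± 0.28). Cd209a fell by 1.41 ± 0.26, and Cd207 (langerin, of Langerhans cells) had -1.04 ± 0.27 and did not pass (limma adjusted p = 0.0572). Il34, the keratinocyte ligand of the CSF-1 receptor on which Langerhans cells depend, went from 11.5 and 9.90 FPKM to 3.42 and 2.46 FPKM, a change of -1.58 ± 0.19.

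The Skint genes, which are made by keratinocytes and the thymus and take part in the selection of epidermal gamma-delta T cells in mice, were singled out after their values had been seen. Of 6 measured, 4 fell and all 6 had changes below 0, with a median of -1.93. Skint9 went from 38.8 and 43.9 FPKM to 4.50 and 7.27 FPKM, a change of -2.65 ± 0.47. Cd7, a leukocyte surface protein, fell by 1.90 ± 0.18, from 7.68 and 5.52 FPKM to 1.15 and 0.879 FPKM. Without 1 of the 4 libraries 0 to 2 of the 4 Skint calls stood, the 0 without the 12 h library of set 1.

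Some cytokine and receptor genes fell. Of 28 cytokine, chemokine and receptor genes 4 fell (14.3%, beside 3.23% of all genes) and 0 rose. Besides Il34 and Il1r2 these were Il6ra, the interleukin-6 receptor (-1.40 ± 0.25), and Ccl27a, a keratinocyte chemokine for skin-homing T cells (-0.94 ± 0.16). The number of falls was 1 to 3 without 1 of the 4 libraries. The inflammatory genes Il1b and Cxcl2 were high in 1 library only. Il1b had 1.32 and 0.832 FPKM in unirradiated skin and 1.85 and 15.4 FPKM at 12 h, and Cxcl2 had 0.0549 and 0 FPKM against 0.316 and 18.3 FPKM. Neither passed, with limma adjusted p of 0.341 and 0.338. Of 16 interferon response genes and 16 NF-kB pathway genes 0 passed, beside 3.81% of all genes. Lists this short can hold 0 calls at that share. Ifitm3 and Nfkbia, among the most abundant of them, had changes of 0.55 ± 0.32 and -0.41 ± 0.27.

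Many dermal matrix genes fell. Of 22 measured fibroblast and collagen genes 14 fell, 0 rose and all 22 had changes below 0, with a median of -1.17 and medians within the sets of -0.82 and -1.57. Col1a2, a chain of type I collagen, went from 437.6 and 1174 FPKM to 158.2 and 221.1 FPKM, a change of -1.93 ± 0.29 (limma adjusted p = 0.00742). Col3a1, of type III collagen, went from 318.6 and 998.0 FPKM to 132.2 and 166.6 FPKM. Both genes were far higher in the unirradiated library of set 2 than in that of set 1. When that library was dropped, 0 of the 22 were called. Dropping a 12 h library gave 1 call (set 1) or 0 calls (set 2), and dropping the other unirradiated library gave 12. Of 23 proteoglycan and elastic fibre genes 10 fell, and 3 to 9 were called without 1 of the 4 libraries. Lum (lumican), Aspn (asporin) and Mfap4 (a microfibril protein) fell, with changes of -1.85 ± 0.18, -1.83 ± 0.24 and -1.71 ± 0.19, and all 3 were called in each of the 14 fits that left out 1 library. Of 15 matrix proteases and inhibitors 3 fell, Mmp2, Adamts2 and Timp2, and leaving out any 1 of the 4 libraries ended these calls.

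Few markers of other tissue parts passed. Summed over 29 skeletal muscle genes, the level was 7472.8 and 4676.4 FPKM in unirradiated skin and 8428.0 and 5827.3 FPKM at 12 h, and 0 of them passed. Hair shaft genes summed to 62105.4 and 44185.6 FPKM in unirradiated skin and 98717.8 and 46970.5 FPKM at 12 h, with a median change of 0.71 in set 1 against -0.07 in set 2. Of 69 measured, 1 rose, the hair follicle keratin gene Krt28 (0.68 ± 0.13). The call of Krt28 ended without any 1 of the 4 libraries, with the muscle covariate and under quantile normalization (0.47). It also ended in a fit of only the groups compared. Summed over 22 collagen genes it fell from 2549.7 and 5691.3 FPKM to 1206.9 and 1473.0 FPKM. Of 19 adipocyte, 13 endothelial, 15 melanocyte, 8 Schwann cell and 5 mast and B cell markers 0 passed, beside 3.81% of all genes. The last list had a median of -0.98. FPKM is a share of a library, so a gain of 1 tissue part lowers the rest. With the muscle genes as a covariate 230 genes were called, 28 up and 202 down. The part of differing tissue content in the other results was not tested.

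**Figure D4:**
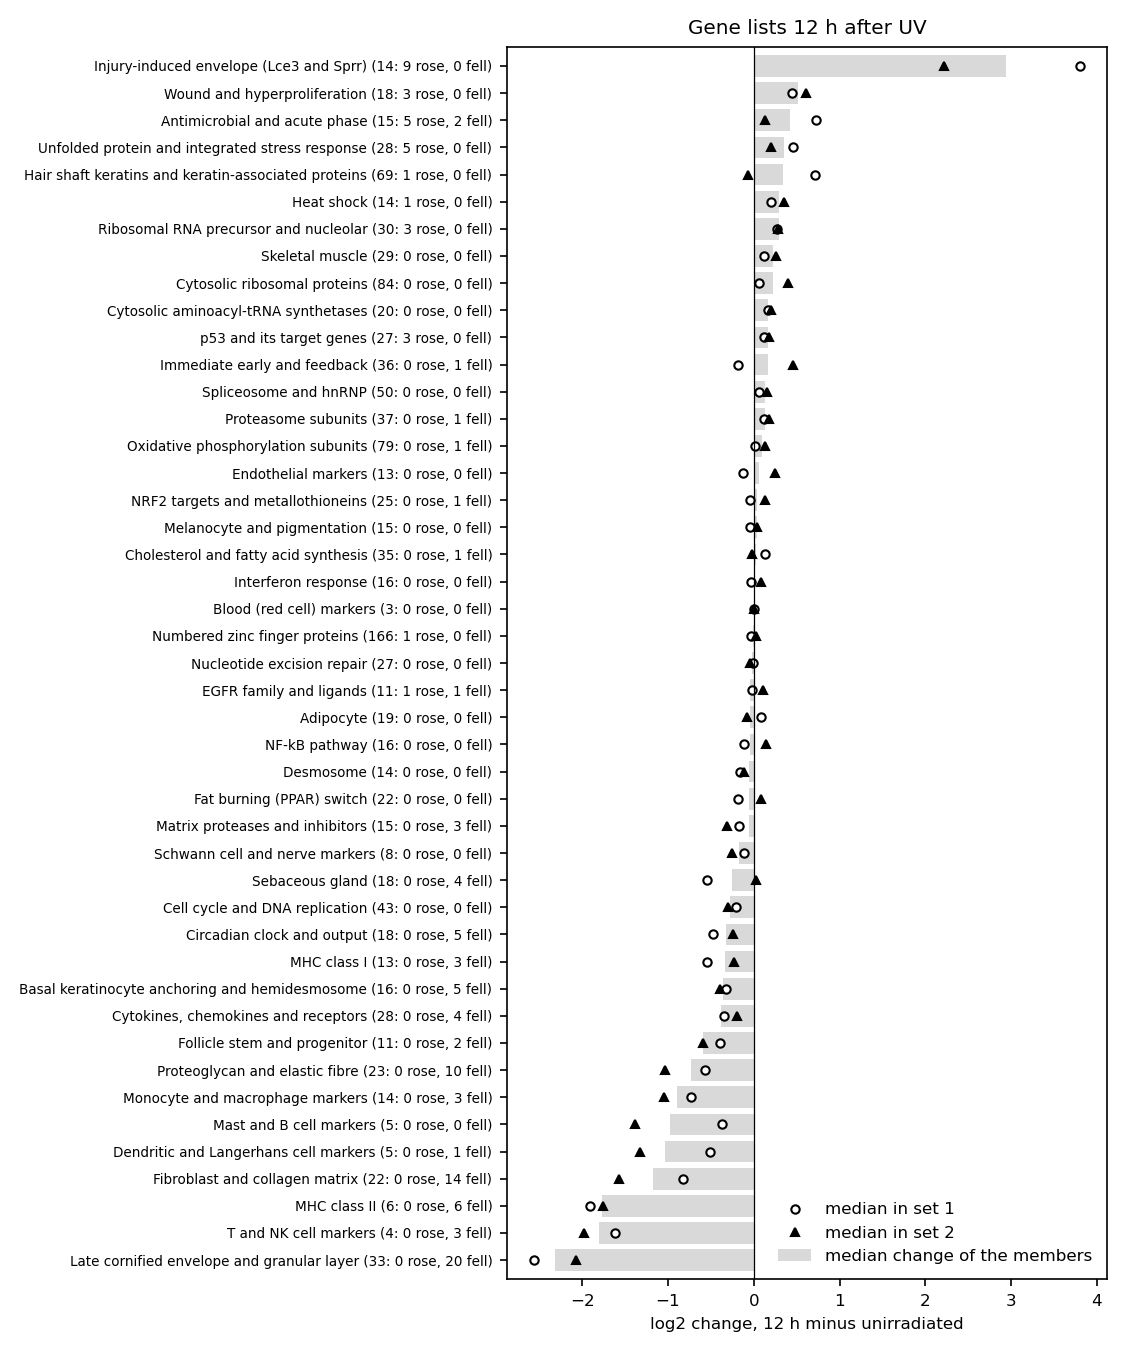
Median log2 change at 12 h after UV of each gene list with at least 3 measured members (bars), with the median in set 1 (circles) and set 2 (triangles). Numbers in brackets give the measured members and how many rose and fell. The injury-induced envelope list stands at the top (2.94) and the late envelope list at the bottom (-2.32, with 14 Lce1 genes among its 33).

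Among the genes best known for answering DNA damage, some p53 targets rose. Of 27 measured p53 targets 3 rose (11.1%, beside 0.574% of all genes) and 0 fell, with a median of 0.16. Cdkn1a (p21, the cell cycle inhibitor) went from 205.1 and 168.6 FPKM to 315.3 and 338.7 FPKM, a change of 0.81 ± 0.19 (limma adjusted p = 0.0402). Its groups did not overlap. Tnfrsf10b, a death receptor, and Aen, an apoptosis nuclease, rose by 0.89 ± 0.21 and 0.69 ± 0.11. Mdm2, the negative regulator of p53, had 0.25 ± 0.21 and did not pass. Without 1 of the 4 libraries 0 or 1 of these 3 calls stood, the 1 without the unirradiated library of set 1, and 1 stood with the muscle genes as a covariate. Of 27 nucleotide excision repair genes, the pathway that removes UV photoproducts, 0 passed; the median was -0.02 and turned to 0.03 under quantile normalization and median-of-ratios scaling. Ddb1, a damage sensor subunit, had 121.5 and 110.3 FPKM before and 120.3 and 107.7 FPKM after. Of 43 cell cycle and replication genes 0 passed, and 42 had changes below 0, with a median of -0.28 beside -0.03 for all genes.

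A few chaperone and amino acid stress genes rose. Of 28 measured genes of the unfolded protein and integrated stress responses 5 rose and 0 fell, with a median of 0.35. Leaving out any 1 of the 4 libraries ended all 5 calls, and 3 stood with the muscle genes as a covariate. Hspa5 (BiP, the main chaperone of the endoplasmic reticulum) had 128.6 and 127.4 FPKM in unirradiated skin and 216.1 and 204.1 FPKM at 12 h, a change of 0.71 ± 0.16 (limma adjusted p = 0.0358). Creld2, which encodes a secreted stress protein, went from 19.6 and 16.6 FPKM to 34.4 and 31.0 FPKM. For both genes the 12 h libraries lay above the unirradiated ones and close to each other. Hyou1 (a chaperone), Asns (asparagine synthetase) and Atf4 (which switches on amino acid supply genes under stress) rose by 0.60 ± 0.10, 0.52 ± 0.10 and 0.52 ± 0.11. Ddit3 (CHOP) had 0.39 ± 0.15 and did not pass. Among 14 heat shock genes Hsph1 rose by 0.64 ± 0.16, a call that ended without any 1 of the 4 libraries and with the muscle covariate. Of 30 ribosomal RNA precursor and nucleolar genes 3 rose (Nop2, Nop56 and Nolc1, by 0.54, 0.53 and 0.45) and 29 had changes above 0. Without 1 of the 4 libraries 0 or 1 nucleolar gene was called, and with the muscle covariate 0.

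The endoplasmic reticulum stress response element, searched on both strands as CCAAT and CCACG with 9 open bases between them, stood in the promoters of 2 of the 4 of these 5 genes that had an entry, Hspa5 and Creld2, and in 0.154% of all 8435 promoters. It contains CCAAT, another of the patterns searched, which is in 39.9% of all. Like the other patterns, the element was chosen after the calls were known. Whether it goes with a rise was not tested, and a match shows no binding. Both promoters are shown because these 2 genes share the pattern, which is in capitals; in Creld2 it is on the other strand and reads reversed.
Hspa5 promoter, chr2:34771840-34772089, plus strand: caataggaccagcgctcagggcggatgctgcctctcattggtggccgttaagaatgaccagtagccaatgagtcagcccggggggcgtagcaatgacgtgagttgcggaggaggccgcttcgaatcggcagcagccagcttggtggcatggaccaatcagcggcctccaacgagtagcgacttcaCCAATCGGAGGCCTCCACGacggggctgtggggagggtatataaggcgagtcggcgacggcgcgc
Creld2 promoter, chr15:88819396-88819645, plus strand: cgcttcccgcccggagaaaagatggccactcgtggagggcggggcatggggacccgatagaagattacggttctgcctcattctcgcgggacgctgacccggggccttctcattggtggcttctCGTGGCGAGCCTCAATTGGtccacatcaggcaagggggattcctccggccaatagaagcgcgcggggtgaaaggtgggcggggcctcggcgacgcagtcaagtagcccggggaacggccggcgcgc
The match begins 65 bases before the start of Hspa5 and 126 bases before that of Creld2.

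Of 18 measured circadian clock and output genes 5 fell and 0 rose. Dbp, an output factor of the clock, went from 18.2 and 19.5 FPKM to 2.76 and 4.4 FPKM, a change of -2.14 ± 0.47. Nr1d2 and Nr1d1 (REV-ERB repressors), Per3 and Tef fell as well, with changes of -1.36 ± 0.18, -1.21 ± 0.22, -1.21 ± 0.18 and -0.86 ± 0.18. Arntl (BMAL1), which peaks opposite to them in mouse tissues, had 0.11 ± 0.17 and did not pass. The series has no unirradiated library 12 h later and gives no time of day, so UV and the time of day cannot be told apart here. Without 1 of the 4 libraries 1 or 2 of the 5 calls stood.

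In the sebaceous gland list 4 of 18 fell, Scd3, Krt79, Cyp27a1 and Dgat2, with changes of -1.41 ± 0.32, -1.34 ± 0.19, -0.85 ± 0.14 and -0.81 ± 0.15. Krt79, a keratin of the duct of the gland, went from 523.3 and 336.3 FPKM to 188.1 and 144.4 FPKM. Fits without 1 of the 4 libraries called 0 to 2, the 0 without the 12 h library of set 2. Of 84 cytosolic ribosomal protein genes 0 passed and 83 had changes above 0, with a median of 0.22 and medians within the sets of 0.06 and 0.40. Of 36 immediate early genes 1 passed, Klf11, a Krüppel-like transcription factor, which fell by 0.84 ± 0.16. The call of Klf11 ended without any 1 of the 4 libraries (changes of -0.95 to -0.73) and in a fit of only the groups compared.

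To place 12 h within the time course, it was compared with 6 h, where 3 libraries were available. At 12 h 74 genes differed from 6 h (0.674%), 49 higher (0.446%) and 25 lower (0.228%). Of these, 28 had also been called against unirradiated skin in the same direction (18 higher and 10 lower), 0 in the opposite direction and 46 not at all. Both comparisons share the 12 h libraries. Dropping the 12 h library of set 1 left 0 calls against 6 h, and dropping the 6 h library of set 3 gave 254.

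Among the genes higher at 12 h than at 6 h were envelope and antimicrobial genes that were still low at 6 h. Sprr2f had 0.304, 0.258 and 0.433 FPKM at 6 h (sets 1, 2 and 3) and 30.5 and 5.50 FPKM at 12 h, a difference of 3.44 ± 0.41 (limma adjusted p = 0.0101). Sprr2i, Sprr2d, S100a9 and Lce3b differed by 2.93 ± 0.44, 2.86 ± 0.46, 2.77 ± 0.42 and 2.73 ± 0.46. Lce3c already had 35.0, 15.9 and 53.9 FPKM at 6 h, and its difference of 1.23 ± 0.27 did not pass. The falls of Lce1 genes did not pass between 6 h and 12 h either. For Lce1j, with 3.72, 1.57 and 3.30 FPKM at 6 h, the difference was -1.20 ± 0.51. The class II genes H2-Aa, H2-Ab1, H2-Eb1 and Cd74 were lower at 12 h than at 6 h, with a difference of -0.94 ± 0.12 for H2-Aa.

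Metabolic genes that did not pass against unirradiated skin differed from 6 h. Angptl4, a lipase inhibitor induced by fasting, had 107.5, 69.0 and 70.9 FPKM at 6 h, 7.67 and 21.2 FPKM at 12 h and 15.5 and 23.4 FPKM in unirradiated skin. The difference from 6 h was -2.45 ± 0.45 and that from unirradiated skin -0.53 ± 0.48. Txnip (a glucose-sensitive arrestin) and Cpt1a (entry of fatty acids into mitochondria) were lower than at 6 h, with differences of -1.63 ± 0.24 and -1.06 ± 0.13. Scd2, a fatty acid desaturase, went the other way, from 40.2, 40.7 and 61.0 FPKM at 6 h to 166.6 and 87.8 FPKM, a difference of 1.41 ± 0.21. Mvd and Cyp51 of cholesterol synthesis differed by 1.0 ± 0.18 and 0.76 ± 0.13. Of 35 cholesterol and fatty acid synthesis genes 3 were higher than at 6 h and 0 lower. Against unirradiated skin 1 of the 35 passed, Elovl4, with a change of -0.90 ± 0.21. Klf11 had 7.81, 9.62 and 8.62 FPKM at 6 h and 1.73 and 1.87 FPKM at 12 h, a difference of -1.77 ± 0.15. Both 12 h values also lay below the 3.98 and 4.07 FPKM of unirradiated skin. 

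Between 12 h and 24 h, limma called 0 genes (0%), with 566 at an unadjusted p under 0.05 and 49 without the set as a term. Krt6b had 276.3 and 23.6 FPKM at 24 h, against 79.9 and 11.5 FPKM at 12 h, a difference of 1.38 that did not pass. Flg2 had 20.9 and 2.01 FPKM at 24 h, above its 12 h level in set 1 and below it in set 2. H2-Aa had 32.2 and 39.7 FPKM at 24 h, a difference of -0.17 from 12 h.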

How the data were processed

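The authors deposited 1 table of FPKM values for 10980 genes in 14 libraries. Per the submitters' processing notes, the tools were TopHat2 2.1.0 and Cufflinks 2.2.1 and the build was mm10; their settings are not known. Total RNA was extracted with Trizol, per the labels' protocols. Columns were assigned to time points by header, which gives no replicate number. They fall into 3 sets by number format and header: set 1 has 6 digits at most, sets 2 and 3 up to 17. The second unirradiated column, without an hour in its header, was placed in set 2 by its mean Pearson correlation (0.964, against 0.888 with set 3). Libraries of a set deviated together from their time-point means in all 28 pairs, with a correlation of at least 0.411. Between sets it was at most 0.492, so the ranges overlap. Where a time point has only 2 libraries, the deviation of 1 is that of the other with its sign reversed. The 0.844 between 0 and 12 h is therefore the same value in sets 1 and 2. The 28 pairs are thus not separate observations, and the second unirradiated column had itself been placed by correlation. Using the set as a block was a choice that these correlations cannot settle. Each set covers the same hours as 1 of the title replicate numbers, but no header ties a column to a number, so the block may not match the titled replicates. Spearman correlations ranged from 0.948 to 0.988 within sets, against 0.83 to 0.926 for the same time in different sets.

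The depth of set 1 is unknown. In sets 2 and 3, column ratios were whole-number ratios (tolerance 1e-12) for 10952 of 10954 genes, which gave 12806484 reads at 0 h and 12406763 at 12 h in set 2; a factor shared by all 8 libraries would make a read number too low. Listed FPKM summed to 617748 and 441072 at 0 h and 649002 and 474898 at 12 h. An exact 0 may be a failed estimate. The number format of set 1 differs, and how it was quantified is not given in the sources used here.

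Values were tested as log2(FPKM + 1) with limma 3.58.1 (R 4.3.3), group means plus the set over all 14 libraries, an intensity trend, 6 residual degrees of freedom, two-sided, and Benjamini-Hochberg adjustment. The pseudocount of 1 understates changes of low genes. The median residual SD was 0.155, and 0.335 without the set. The p-values measure the spread between these samples, which may be technical. With 2 libraries a group, an exact permutation test of 1 gene cannot go below 0.333. On simulated data for 12 h against 0 h, the fit recovered 81% and 99% of genes shifted by 1 and 2, with 14 false calls; without the set it recovered 5% and 72% with 0 false calls. The simulated set effects were constant over time, which favours the fit with the set. The shifted genes were drawn from those with a mean log2(FPKM + 1) above 2, so the recovery does not cover low genes.

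The comparison, the set term and the gene lists were chosen with earlier results of these data known. Genes are named by rule: the 10 largest rises and falls, up to 4 called members of each list and direction (or the 2 most abundant where none passed), and the 5 largest differences in each direction from 6 h. A named gene is not reported here. The split of the late envelope list, the Skint genes and other genes outside this rule were chosen after their values were seen. Coordinates are from GENCODE vM21 (GRCm38), promoter sequences from RefSeq (GRCm38.p6).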

Additional observations from a re-analysis of the deposited data

Results flagged for a closer look

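The following 9 genes are noted because the change from unirradiated skin differed between 12 h and 6 h by a direct limma test of 12 h against 6 h; they were taken from the largest differences in each direction among the 74 genes called. Higher at 12 h were Sprr2f (3.44), Sprr2i (2.93), Sprr2d (2.86), S100a9 (2.77) and Lce3b (2.73), as log2 differences. Lower at 12 h were Angptl4 (-2.45), Klf11 (-1.77), Txnip (-1.63) and Cd7 (-1.45). Klf11 stood above its unirradiated level at 6 h (0.93) and below it at 12 h (-0.84). Angptl4 stood 1.92 above it at 6 h and had -0.53 at 12 h. The counts that follow are for 12 h against 6 h and do not cover the change from unirradiated skin. Of these 9 genes, Sprr2f and Klf11 were called in 13 of 14 fits with a library left out, Cd7 in 12, Sprr2i and Txnip in 11, S100a9 in 10, Sprr2d in 8, Lce3b in 6 and Angptl4 in 4.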

How the results depend on the processing

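All 22 alternative settings kept the direction of the 89 called genes named against unirradiated skin, in each setting that gave a value. This was largely fixed in advance. Dropping the set term, or a library outside the comparison, leaves the fold change itself as it was. The called genes had also moved the same way in both sets. Without the library set as a block (no pairing of libraries), 0 genes rose or fell against unirradiated skin, 1 was called against 6 h (0 higher, 1 lower; 357 at an unadjusted p under 0.05) and 0 of the gene lists held a call, against 30 with the block. With the muscle list as a covariate the numbers were 230 (28 up, 202 down) and, against 6 h, 2 (0 up, 2 down). Quantile normalization gave 152 rises and 325 falls (68.1% falls, median of all genes 0.03) and median-of-ratios scaling 96 and 282 (74.6%, median 0.02). Sets 1 and 2 alone gave 134 rises. Against 6 h, quantile normalization called 129 (82 up, 47 down), a fit of only the groups compared 509 (209 up, 300 down) and sets 1 and 2 alone 31 rises. The share of genes with the same sign in both sets was 68.4% after median-of-ratios scaling. The causes of these differences were not tested.

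Leaving out 1 library at a time gave 51 to 814 calls against unirradiated skin (6 to 192 up, 45 to 622 down), 0 to 254 against 6 h (0 to 145 up, 0 to 109 down), 0 to 17 for 24 h against 12 h and 12 to 33 lists with a call. A left-out library leaves 1 library in its group, which is then assumed to vary like the others. Of the 89 genes, 45, 54, 67 and 53 were no longer called without the unirradiated library of set 1, that of set 2, the 12 h library of set 1 and that of set 2. The unknown depth of set 1 limits what can be said of low genes.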

Other observations

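Several genes outside the lists changed strongly and were picked after their values had been seen. Chl1 (a neural cell adhesion protein) and Wnt7b (a Wnt ligand of keratinocytes) were called in all 14 fits that left out 1 library. Chl1 went from 9.34 and 10 FPKM to 1.21 and 2.05 FPKM, a change of -2.04 ± 0.22, and Wnt7b from 16.0 and 6.5 FPKM to 3.46 and 1.90 FPKM, a change of -1.65 ± 0.20. Hal, the histidine ammonia-lyase that makes urocanic acid, the UV absorber of the horny layer, went from 132.6 and 83.1 FPKM to 22.6 and 21.6 FPKM, a change of -2.20 ± 0.44. Alox12e, an epidermal lipoxygenase, and Ptgs1 (cyclooxygenase-1) had changes of -1.77 ± 0.29 and -2.0 ± 0.35. Pou2f3, a transcription factor of suprabasal keratinocytes, fell by 1.43 ± 0.24. Among genes that rose, Tnfrsf12a, the receptor of the cytokine TWEAK, went from 36.0 and 28.2 FPKM to 71.2 and 55.2 FPKM, a change of 0.95 ± 0.17, and Ccl19, a lymphocyte and dendritic cell chemokine, changed by 1.16 ± 0.27.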
